A study of Homo sapiens with 4 samples.

Results

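The 10 genes described here encode the proteins that copy, transcribe and translate the mitochondrial genome, together with a pair of regulators of mitochondrial biogenesis. They were chosen by name, as members of one cellular process, and not by their values, though earlier results of these data were known. They are TFAM, TFB1M, TFB2M, POLRMT, POLG, TUFM, TSFM, GFM1, NRF1 and PPARGC1B, 10 of the 26475 gene symbols in the deposited count tables, and all 10 were among the 15204 genes with at least 10 reads in at least 1 library.

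MDA-MB-468 is an established human breast carcinoma line of basal-like, triple-negative type, and its RNA was sequenced after about a week of growth as mammospheres, which are spheres in suspension. There were 4 conditions with 1 library each. CTL and CTL+dox are cells with the vector control, without and with doxycycline, and both carry the label wild type. gRNA2 and gRNA2+dox are cells with a guide against TCOF1, a nucleolar protein of ribosomal RNA transcription. gRNA2 without doxycycline is labelled wild type, and gRNA2+dox, in which doxycycline induces the guide, is labelled a TCOF1 knockout. By the study's methods all lines carry Cas9 with a red reporter and the inducible vector with a green reporter, and were sorted on both, so each library is a pool of cells and not a clone. The plates of a condition were combined and no biological replicates were made. A difference between a pair of libraries therefore has no replicate check, no p-value is given, and every interval printed covers counting error only.

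Human mitochondria keep a small circular genome that encodes subunits of the respiratory chain and the RNAs of the mitochondrial ribosome. The nucleus supplies all the proteins that express it. TFAM packages mitochondrial DNA and bends it at promoters, POLRMT is the RNA polymerase, TFB2M melts the promoter for it, TFB1M methylates the small ribosomal RNA, and POLG is the catalytic subunit of the DNA polymerase. TUFM, TSFM and GFM1 are the mitochondrial counterparts of the bacterial elongation factors Tu, Ts and G. NRF1 is a nuclear transcription factor that activates many of these genes, and PPARGC1B (PGC-1beta) is a coactivator of the PGC-1 family that works with it. Doxycycline belongs to the tetracyclines, antibiotics that bind bacterial ribosomes and can also slow the mitochondrial ribosome, so the process these genes serve is one that the inducing agent itself can touch.

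RefSeq promoters of GRCh38.p14, the same build as the hg38 named in the submitters' processing notes, were matched for 9 of the 10 genes, all but NRF1. They are shown because NRF1 is itself one of the 10, and its known motif can be read in the promoters of the others. Each run is the 140 bases before the annotated start, 5′ to 3′ on the gene's strand, with motif matches in capitals. The first 3 hold the NRF1-type motif, GCGCA and GCGC with 1 base of any kind between them.
TFAM (chr10:58385270-58385409, forward strand): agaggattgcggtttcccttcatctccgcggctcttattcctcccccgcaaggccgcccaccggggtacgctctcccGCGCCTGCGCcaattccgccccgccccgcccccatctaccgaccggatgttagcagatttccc
TFB1M (chr6:155314485-155314624, reverse strand): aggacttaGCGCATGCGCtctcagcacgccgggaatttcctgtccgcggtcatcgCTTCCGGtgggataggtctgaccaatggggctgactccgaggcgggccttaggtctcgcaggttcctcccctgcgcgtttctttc
POLRMT (chr19:633538-633677, reverse strand): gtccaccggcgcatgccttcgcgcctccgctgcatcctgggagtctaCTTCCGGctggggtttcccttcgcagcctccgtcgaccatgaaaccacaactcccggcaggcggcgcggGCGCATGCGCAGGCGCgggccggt
The motif was searched on both strands from 250 bases before to 50 bases after the start, and 3 of the 9 promoters held it, beside 5.75% of 34796 promoters of the same length. The match in TFAM began at position -63, counted from the start, on the reverse strand, and the one in TFB1M at -132. POLRMT held overlapping matches at -24 and -18. In TFB1M and in one of the POLRMT matches the base between them was T, which makes a palindrome and stands in 1.23% of all promoters. The second motif, CCGGAAG, is the core bound by the ETS family, to which the nuclear respiratory factor GABP belongs.
TUFM (chr16:28846349-28846488, reverse strand): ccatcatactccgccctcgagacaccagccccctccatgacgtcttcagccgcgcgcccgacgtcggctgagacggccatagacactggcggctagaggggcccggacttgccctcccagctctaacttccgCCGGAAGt
GFM1 (chr3:158644387-158644526, forward strand): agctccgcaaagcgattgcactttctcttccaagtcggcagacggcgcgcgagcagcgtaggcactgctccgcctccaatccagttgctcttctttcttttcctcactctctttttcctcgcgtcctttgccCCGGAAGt
CCGGAAG was found in 4 of the 9 promoters, those of TFB1M, POLRMT, TUFM and GFM1, and in 10.2% of all promoters. In TUFM and GFM1 it began at -8, immediately before the start, and in TFB1M and POLRMT it lay at -85 and -93 on the reverse strand. Neither motif was found in the TFB2M, POLG, TSFM and PPARGC1B windows, which says only that these letters are absent there. The PPARGC1B window lies at a start inside the gene's outer limits.

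Counts on genes summed to between 19960644 and 26322847 per library, which was 79.7% to 81.0% of all reads in the tables, unassigned reads included. Levels are CPM, the reads of a gene relative to that sum, scaled by TMM factors that lay between 0.985 and 1.01. 3 reads, taken as the floor, stand for 0.114 to 0.148 CPM. Reads mapping to several places were fewest in gRNA2+dox (3.39%, against 4.02% to 4.85%), and reads in no feature were most there (12.5%, against 10.6% to 11.3%); their part in the results was not tested. The labelled line was checked by markers: KRT5, KRT17, KRT19 and EGFR lay between 2458 and 6668 CPM in the 4 libraries. EPCAM, CDH1, KRT7, KRT18 and FOXC1 lay between 158 and 983 CPM. ESR1, the estrogen receptor, had at most 13 reads and PGR, the progesterone receptor, at most 7. ERBB2, which encodes HER2, was detected at 12.4 to 14.7 CPM. Among markers of other cell types PTPRC and CD3E had at most 3 reads, while COL1A1, a collagen gene of fibroblasts, stood at 16.2 to 20.8 CPM and CD14, a monocyte marker, at 10.3 to 12.4 CPM. The whole list summed to 30.05 to 33.3 CPM, and its part in the results was not tested. TCOF1 itself, on chromosome 5 from 150357697 to 150400293, stood at 50.4 CPM in the vector control and 33.5 with doxycycline, and at 50.1 in the guide line and 20.02 after induction. It was lowest in the library labelled knockout, at a log2 ratio of -1.32 (95% interval -1.48 to -1.17) to gRNA2. The vector control also had less TCOF1 with doxycycline, by a log2 ratio of -0.59 (-0.73 to -0.45), so doxycycline moved with TCOF1 in both lines. In bulk RNA a smaller share of cells that express a gene and less RNA per cell cannot be told apart.

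The 10 genes differed little between the 4 libraries, as did other genes with mean counts in the same range. The median absolute log2 ratio was 0.13 for the 10 and 0.11 for 8839 such genes in gRNA2+dox against gRNA2. It was 0.09 and 0.15 in gRNA2+dox against CTL+dox, 0.12 and 0.12 in CTL+dox against CTL, and 0.13 and 0.11 in gRNA2 against CTL. The highest library of the 10 genes exceeded their lowest by 1.09-fold in TUFM to 1.70-fold in PPARGC1B. The median was 1.16-fold, and for 7 of the 10 it was less than 1.2-fold. The lowest library was gRNA2 for 5 genes, CTL for 4 and CTL+dox for 1, and it was the knockout library for 0 of the 10. The highest was CTL+dox for 4, gRNA2+dox for 3, CTL for 2 and gRNA2 for 1. These counts were not made over all genes.

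**Figure D1:**
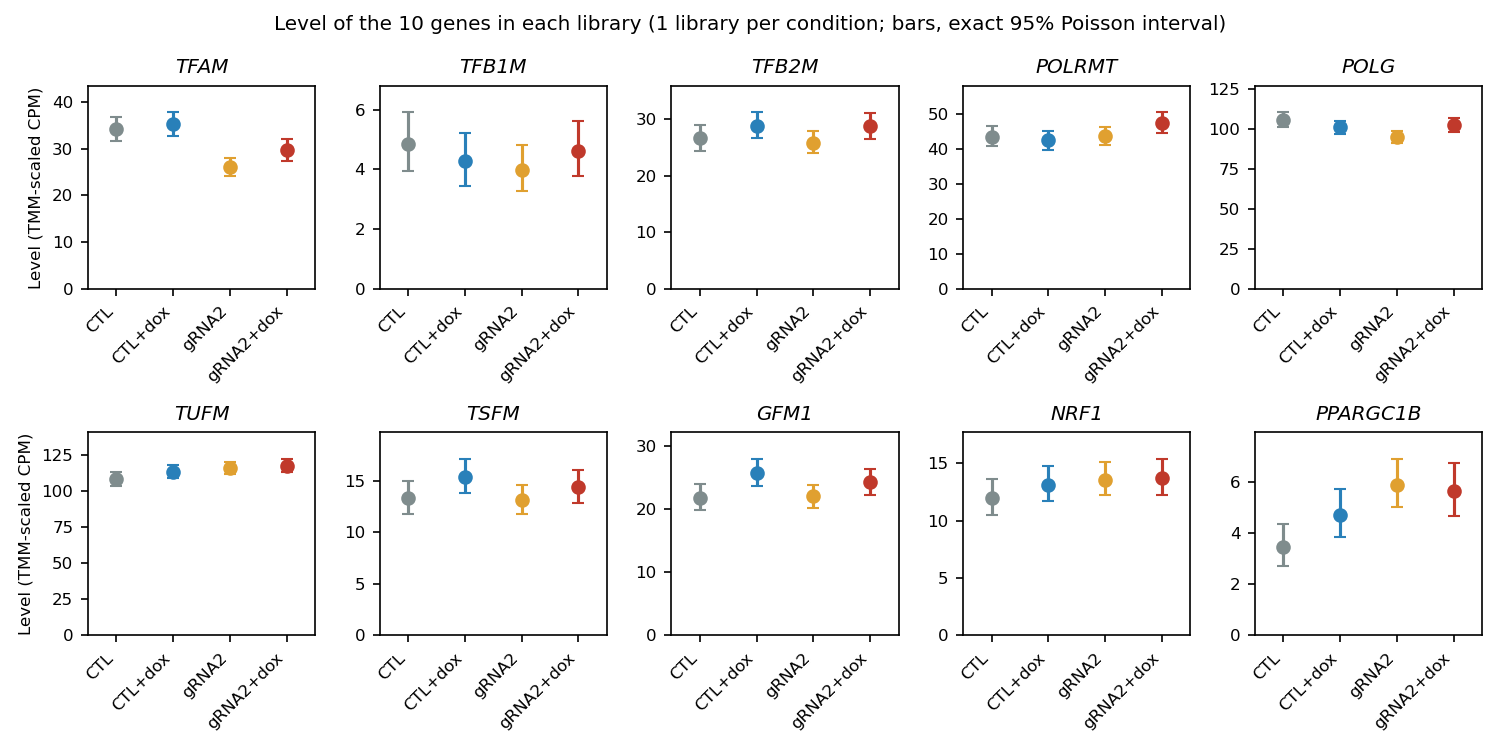
Level of each of the 10 genes in TMM-scaled CPM (vertical axes start at 0) in the 4 libraries, 1 point per library with its exact 95% Poisson interval. TFAM is lowest in gRNA2 (26.0 CPM) and PPARGC1B is lowest in CTL (3.46 CPM), while TUFM stays between 108.4 and 117.7 CPM.

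A gene was called different between a pair of libraries when it was at least 25% higher or 20% lower and the exact interval of its log2 ratio left out 0. Between gRNA2+dox and gRNA2, the same line with and without the induced knockout, 8.76% of all tested genes passed this rule (4.73% lower and 4.03% higher) and 0 of the 10 did. Between gRNA2+dox and CTL+dox, both given doxycycline, 15.5% of all genes passed (8.43% lower and 7.1% higher) and 0 of the 10. Between CTL+dox and CTL, the vector control with and without doxycycline, 7.59% of all genes passed and 0 of the 10 did. Of all genes, 4.33% were lower and 3.26% higher. The one comparison with calls was gRNA2 against CTL, in which neither library had doxycycline and TCOF1 was level (log2 ratio -0.01): 9.01% of all genes passed (5.56% lower and 3.45% higher), and so did 2 of the 10, TFAM lower and PPARGC1B higher. At 2-fold in either direction with the same interval, and without the GFOLD bound that the study also used, 1.82%, 3.3%, 1.53% and 1.99% of all genes passed in these 4 comparisons, in that order, and 0 of the 10 in each. These counts are near the background shares and are not a result about the 10 genes. Among the 8839 genes with mean counts in the same range as theirs, 8.49%, 16.4%, 7.56% and 8.32% passed the 25% rule. By the interval alone, 2 of the 10 differed in gRNA2+dox against gRNA2 (TFAM and POLG, beside 30.7% of all genes) and 2 against CTL+dox (TFAM and POLRMT, beside 40.2%). The same count was 1 in CTL+dox against CTL (GFM1, beside 30.4%) and 4 in gRNA2 against CTL (TFAM, POLG, PPARGC1B and TUFM, beside 30.8%). The interval put 0 of the 10 below each of the 3 other libraries in the knockout, beside 4.56% of all genes, and 0 above each of them, beside 5.3%.

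What the data do give is a bound on each gene. In gRNA2+dox against gRNA2 the 10 intervals ran from -0.42, the lower end for PPARGC1B, to 0.62, the upper end for TFB1M. In gRNA2+dox against CTL+dox they ran from -0.40 (TFAM) to 0.65 (PPARGC1B). All 10 intervals lay inside 2-fold in both comparisons and in CTL+dox against CTL, and 9 of 10 did in gRNA2 against CTL. As 1 library stands for a condition, the bounds hold for these libraries.

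Transcription of mitochondrial DNA begins with TFAM, which lies on chromosome 10 from 58385410 to 58399220. In the vector control TFAM stood at 34.2 CPM (692 reads) without and 35.2 (792 reads) with doxycycline, and in the guide line at 26.0 (685 reads) without and 29.7 (648 reads) with it. Both libraries of the guide line were below both of the vector control. The log2 ratio was -0.39 (-0.55 to -0.24) in gRNA2 against CTL and -0.25 (-0.40 to -0.09) in gRNA2+dox against CTL+dox. Within the guide line the knockout library was the higher of the pair, at 0.19 (0.03 to 0.35), and within the vector control the ratio with doxycycline was 0.04 (-0.11 to 0.19). TFAM therefore differed in opposite directions from the 2 libraries to which the knockout can be compared, and in each case by less than the 25% rule asks. The larger difference was between lines, in the absence of the knockout.

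POLRMT, the polymerase, lies on chromosome 19 from 617221 to 633537. Its levels were 43.5, 42.5, 43.6 and 47.5 CPM in CTL, CTL+dox, gRNA2 and gRNA2+dox, from 881, 956, 1149 and 1036 reads. The knockout library was the highest by a small margin. The log2 ratio was 0.12 (-0.00 to 0.24) to gRNA2 and 0.16 (0.03 to 0.29) to CTL+dox. In CTL+dox against CTL it was -0.03 (-0.17 to 0.10).

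TFB2M, the promoter-melting factor, lies on chromosome 1 from 246540561 to 246566261. It stood at 26.6, 28.8, 25.8 and 28.8 CPM in CTL, CTL+dox, gRNA2 and gRNA2+dox. Both libraries with doxycycline were slightly above both without, by log2 ratios of 0.12 (-0.05 to 0.29) in the vector control and 0.16 (-0.00 to 0.31) in the guide line. The libraries given doxycycline did not differ detectably from each other, at -0.00 (-0.16 to 0.16).

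TFB1M, the ribosomal RNA methyltransferase, lies on chromosome 6 from 155229871 to 155314484 and had the fewest reads of the 10 in every library but CTL, 98, 96, 105 and 101 in the same order. Its levels were 4.84, 4.27, 3.99 and 4.63 CPM. No pair of these libraries differed beyond counting error, and the depth allowed log2 ratios from -0.19 to 0.62 in gRNA2+dox against gRNA2. TFB1M overlaps TIAM2 and CLDN20, and reads shared by genes are set aside when strand is ignored. The deposited tables also give counts by strand, and their sum for TFB1M was 177, 174, 214 and 174, between 1.72 and 2.04 times the count used here. With these sums its ratio to gRNA2 was -0.03 in place of 0.21, and its ratio to CTL+dox was 0.04 in place of 0.12. As the strand columns split all reads evenly, the sums can include reads of the overlapping genes.

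POLG, which replicates the mitochondrial genome, lies on chromosome 15 from 89316320 to 89334824 and had 2144 to 2502 reads. Its level was 106 CPM without and 101.2 with doxycycline in the vector control, and 95.02 without and 102.6 with it in the guide line. Doxycycline moved with POLG in opposite directions in the 2 lines, at log2 ratios of -0.07 (-0.15 to 0.02) in the vector control and 0.11 (0.03 to 0.19) in the guide line. These ratios differed by 0.18 (counting SE 0.06), and the interval of the difference, 0.06 to 0.30, left out 0, as it did for 26.6% of all genes and for 1 of the 10. POLG overlaps FANCI and the reading frame POLGARF, and its strand sums were 1.11 to 1.13 times its counts.

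Of the elongation factors, TUFM was the most abundant member. TUFM brings aminoacyl-tRNA to the mitochondrial ribosome and lies on chromosome 16 from 28842411 to 28846348. It stood at 108.4, 113.4, 116.1 and 117.7 CPM in CTL, CTL+dox, gRNA2 and gRNA2+dox, from 2193 to 3058 reads. It was the steadiest of the 10 and among the most precisely measured. Its log2 ratio was 0.02 (-0.06 to 0.10) to gRNA2 and 0.05 (-0.03 to 0.13) to CTL+dox, and 0.07 (-0.02 to 0.15) for doxycycline in the vector control.

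TSFM, the exchange factor that recharges TUFM, lies on chromosome 12 from 57782787 to 57802856. Its levels were 13.3, 15.4, 13.1 and 14.4 CPM in CTL, CTL+dox, gRNA2 and gRNA2+dox. GFM1, the translocase, lies on chromosome 3 from 158644527 to 158695581 and stood at 21.9, 25.8, 22.1 and 24.3 CPM. Both were higher in the libraries with doxycycline than in the libraries without. For TSFM the log2 ratio was 0.21 (-0.02 to 0.44) in the vector control and 0.13 (-0.09 to 0.36) in the guide line. For GFM1 it was 0.24 (0.06 to 0.42) and 0.14 (-0.03 to 0.31). Against CTL+dox the knockout library stood at -0.10 (-0.32 to 0.13) for TSFM and -0.09 (-0.26 to 0.09) for GFM1, so the doxycycline libraries could not be told apart at this depth.

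NRF1, the transcription factor, lies on chromosome 7 from 129611720 to 129757076 and stood at 12.01, 13.2, 13.6 and 13.7 CPM in CTL, CTL+dox, gRNA2 and gRNA2+dox. None of its 4 ratios left out 0, and the largest was 0.18 (-0.06 to 0.42) in gRNA2 against CTL. The 3 genes whose promoters hold its motif gave ratios of 0.19 (TFAM), 0.21 (TFB1M) and 0.12 (POLRMT) in gRNA2+dox against gRNA2, and -0.25, 0.12 and 0.16 in gRNA2+dox against CTL+dox. They did not share a direction across comparisons.

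PPARGC1B varied most of the 10. It lies on chromosome 5 from 149730310 to 149857959 and had 70 reads in CTL (3.46 CPM), 106 in CTL+dox (4.71 CPM), 155 in gRNA2 (5.89 CPM) and 123 in gRNA2+dox (5.63 CPM). CTL was the lowest library and the other 3 were higher. The log2 ratio was 0.76 (0.35 to 1.195) in gRNA2 against CTL and 0.44 (-0.00 to 0.90) in CTL+dox against CTL. The knockout library was within counting error of gRNA2, at -0.06 (-0.42 to 0.29), and of CTL+dox, at 0.26 (-0.13 to 0.65). The difference between lines was thus seen without the knockout, and rested on 70 reads in CTL. PPARGC1B is also the one member on the chromosome of TCOF1, 499737 bases away from it.

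The other coactivators of the PGC-1 family differed from PPARGC1B in level by far more than conditions did. PPARGC1A (PGC-1alpha), known from brown fat, muscle and liver, had 1 read in each of the 4 libraries, below the floor of 3 reads and too few for any ratio. PPRC1 (PGC-1-related coactivator) had 1144 to 1732 reads, and its mean level per length was 11.1 CPM per kb beside 0.466 for PPARGC1B. These mammospheres thus had PPRC1 as the most abundant family member by this measure. PPRC1 gave log2 ratios of -0.11 (-0.22 to -0.01) to gRNA2 and 0.26 (0.14 to 0.37) to CTL+dox, and passed the rule in neither. PPARGC1A and PPRC1 are named here after their values were seen.

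Per kilobase of the canonical transcript, the mean level over the 4 libraries was 56.6 CPM per kb for TUFM, 22.7 for POLG, 15.4 for TFB2M, 11.7 for POLRMT, 7.05 for TSFM, 6.22 for TFAM, 3.73 for NRF1, 3.63 for GFM1, 1.58 for TFB1M and 0.466 for PPARGC1B. This order held in each library except between neighbours whose ranges overlapped, TSFM (6.58 to 7.72) with TFAM (5.18 to 7.01), and NRF1 (3.41 to 3.91) with GFM1 (3.38 to 3.99). TUFM stood at percentile 90.4 of the 13810 tested genes with a known length, TFAM at percentile 50.6 and PPARGC1B at percentile 13.2. The elongation cycle was thus measured at very unequal RNA levels, with TUFM far above TSFM and GFM1. The promoter factor TFB2M was above POLRMT, and both were above TFAM. Before division by length the mean levels were 44.3 CPM for POLRMT, 31.3 for TFAM and 27.5 for TFB2M. The order of these genes thus depends on the lengths used. Lengths are those of 1 transcript a gene. Reads set aside at its overlaps may lower the value for TFB1M, but they cannot be assigned to it here.

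**Figure D2:**
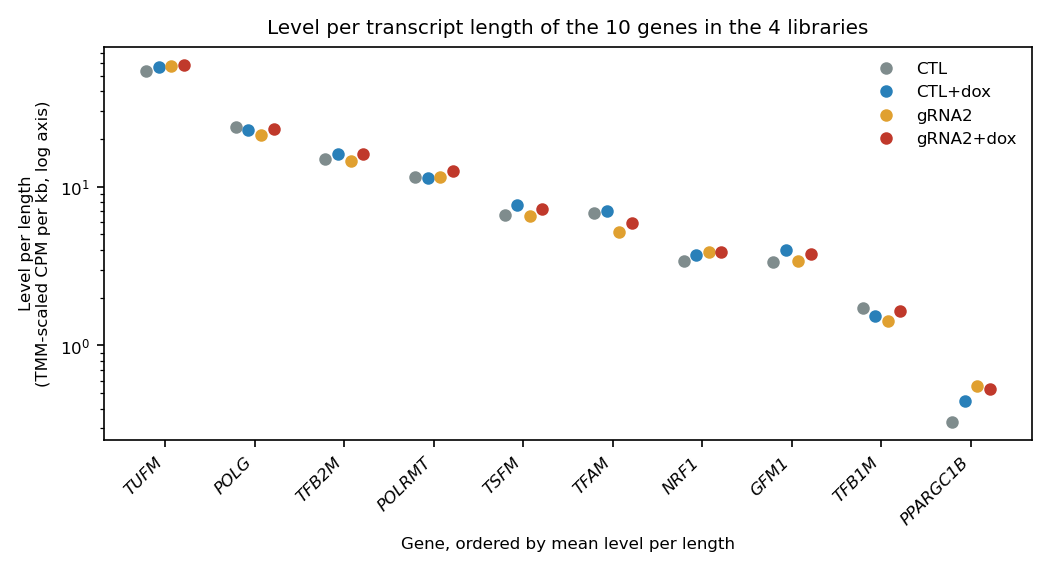
Level per kilobase of canonical transcript (TMM-scaled CPM per kb, log axis) of the 10 genes, ordered by their mean, with 1 point per library. TUFM (56.6) lies highest and PPARGC1B (0.466) lowest, and the spread between libraries is small beside the spread between genes.

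Doxycycline was given to both lines, so its ratio can be read without and with the guide against TCOF1. The median log2 ratio of the 10 genes was 0.09 in CTL+dox against CTL and 0.13 in gRNA2+dox against gRNA2, beside 0.00 and -0.00 over all tested genes. In the vector control 7 of the 10 were above 0, and in the guide line 9 of 10, with PPARGC1B the exception. Scaled by total counts alone the guide line gave 7 of 10, with NRF1 and TUFM just below 0, and with the strand sums 8 of 10. Of all tested genes, 50.2% were above 0 in the vector control and 49.6% in the guide line. In the related lists described below, the share ran from 29.4% (biogenesis regulators) to 93.3% (respiratory chain) in the vector control. In the guide line it ran from 41.2% (biogenesis regulators) to 75.3% (mitochondrial ribosomal proteins). The difference of the doxycycline ratios between lines had a median of -0.005 over the 10, with 5 above 0 and 5 below. With 1 library per condition this difference also holds any variation between cultures. TCOF1 was lower with doxycycline in the vector control too, so the guide is not fully set apart from doxycycline. For TCOF1 this difference was -0.73 with a counting SE of 0.11. Among the 10 it ran from -0.51 (SE 0.28) in PPARGC1B to 0.39 (SE 0.29) in TFB1M. Against CTL+dox the knockout library gave a median of 0.04, with 6 of the 10 above 0 and 4 below, or 5 and 5 with total counts, thinning or the strand sums. These comparisons share libraries, so they are not independent of one another.

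The rest of the machinery was read from lists that leave the 10 genes out. Their counts stand beside the shares of all tested genes called, 4.73% lower and 4.03% higher against gRNA2, and 8.43% lower and 7.1% higher against CTL+dox. In the short lists 1 gene is a larger share than these, so such counts are a description. For replication and maintenance of mitochondrial DNA, 14 genes were tested, with median log2 ratios of 0.09 to gRNA2 and -0.07 to CTL+dox. 1 was called higher against gRNA2, MPV17, an inner membrane protein needed to keep mitochondrial DNA, at 0.37 (0.07 to 0.68), and it stood at 0.01 against CTL+dox. Against CTL+dox 2 were called higher, TOP1MT and TK2, and 1 lower, POLG2, the accessory subunit of POLG. TOP1MT, the mitochondrial topoisomerase, was above both references, at 0.20 (0.01 to 0.40) and 0.41 (0.20 to 0.62). SSBP1, which coats single-stranded mitochondrial DNA, stood at -0.02 and -0.11.

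Of 5 other transcription and termination factors, 0 were called against gRNA2 and 1 against CTL+dox, TEFM, the elongation factor of POLRMT, which was lower at -0.86 (-1.40 to -0.34) on 48 to 90 reads. TEFM was also the one called higher in CTL+dox against CTL, at 0.58 (0.08 to 1.10), so CTL+dox stood above the other 3 libraries.

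Of 24 genes of mitochondrial RNA processing, 3 were called higher against gRNA2 and 0 lower: MTPAP, the mitochondrial poly(A) polymerase, GRSF1, an RNA granule protein, and FASTKD1. That is 12.5% of the list called higher, beside 4.03% of all genes. MTPAP gave 0.62 (0.34 to 0.91) to gRNA2 and 0.22 (-0.05 to 0.50) to CTL+dox, and like TFAM it was lower in gRNA2 than in CTL, at -0.59 (-0.88 to -0.30). PUS1, a pseudouridine synthase of tRNA, was called higher against CTL+dox and stood above both references, at 0.32 (0.03 to 0.60) and 0.36 (0.07 to 0.67). TRNT1, which adds the CCA end to tRNA, was called lower against CTL+dox, at -0.61 (-1.01 to -0.22), and stood at -0.20 (-0.61 to 0.20) against gRNA2. It was also called higher in CTL+dox against CTL, at 0.54 (0.14 to 0.94). TRMT10C and PRORP (listed as KIAA0391), both subunits of mitochondrial RNase P, were the others called lower against CTL+dox.

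Of 14 other translation factors, 0 were called against gRNA2. Against CTL+dox, GFM2, the paralogue of GFM1 that acts in ribosome recycling, was called lower at -0.37 (-0.58 to -0.16). MTRFR, a release factor listed under its older symbol, was called higher there at 0.74 (0.48 to 1.01). In CTL+dox against CTL both were called the other way, GFM2 at 0.36 (0.16 to 0.57) and MTRFR at -0.48 (-0.77 to -0.20). Against gRNA2 they stood at -0.08 (-0.29 to 0.13) and 0.10 (-0.12 to 0.33). MTFMT, which formylates the initiator tRNA, stood at 0.29 (0.02 to 0.56) and 0.18 (-0.10 to 0.46). Of 20 mitochondrial tRNA synthetases, 0 were called against gRNA2 and 2 against CTL+dox, YARS2 at -0.50 (-0.78 to -0.23) and WARS2 at -0.39 (-0.76 to -0.03). In CTL+dox against CTL, YARS2 stood at 0.30 (0.03 to 0.57) and WARS2 at 0.03 (-0.32 to 0.38). Of 17 tested regulators of biogenesis, 0 were called against gRNA2. Against CTL+dox, HCFC1, a partner of the PGC-1 coactivators, was called higher at 0.42 (0.37 to 0.48), and ESRRG was called lower on at most 22 reads. HCFC1 stood at -0.18 (-0.23 to -0.13) against gRNA2. It was also called higher in gRNA2 against CTL, without the knockout, at 0.34 (0.29 to 0.39). ESRRA, the estrogen-related receptor alpha, stood at -0.28 (-0.38 to -0.18) against CTL+dox and 0.18 (0.08 to 0.28) against gRNA2, and was called lower in gRNA2 against CTL, at -0.58 (-0.68 to -0.48).

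The products these factors make or serve were compared too. Of 77 mitochondrial ribosomal proteins, 2 were called higher and 0 lower against gRNA2, and 1 higher and 2 lower against CTL+dox. These are 2.60% higher against gRNA2, and 1.299% higher and 2.60% lower against CTL+dox, each below the share of all tested genes. Of the list, 75.3% were above 0 against gRNA2, 64.9% below 0 against CTL+dox, and 83.1% above 0 in CTL+dox against CTL. The same shares of all tested genes were 49.6%, 50.1% and 50.2%. The medians of the list were 0.09, -0.08 and 0.13. MRPL2 was above both references, at 0.35 (0.21 to 0.49) and 0.35 (0.20 to 0.49). Of 75 tested nuclear-encoded subunits of the respiratory chain, 3 were called higher and 0 lower against gRNA2, while 0 were higher and 10 lower against CTL+dox. The 10 are 13.3% of the list, beside 8.43% of all genes called lower, and the 3 are 4%, beside 4.03% called higher. NDUFB5, a complex I subunit, was among those called lower against CTL+dox, at -0.53 (-0.73 to -0.33). It stood at -0.25 (-0.45 to -0.05) against gRNA2. The median of the respiratory subunits was 0.09 to gRNA2, -0.15 to CTL+dox and 0.15 in CTL+dox against CTL. Of the 75, 66 were below 0 against CTL+dox, and 70 were above 0 in CTL+dox against CTL, beside 50.1% of all tested genes below 0 and 50.2% above 0. The medians of the 10 genes in the same comparisons were 0.13, 0.04 and 0.09. The last 2 of these comparisons share the CTL+dox library, in which most respiratory subunits were high. A list of 18 genes held RNA polymerase I, its factors and the nucleolar proteins NOP56, FBL, NCL and NPM1. In it 1 was called, POLR1B, higher against gRNA2 at 0.43 (0.29 to 0.57). That is 5.56% of the list, beside 4.03% of all genes. Against CTL+dox POLR1B stood at 0.24 (0.10 to 0.38) and was not called. The genes that the mitochondrial genome itself encodes do not appear in the tables by symbol and were not analysed here.

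**Figure D3:**
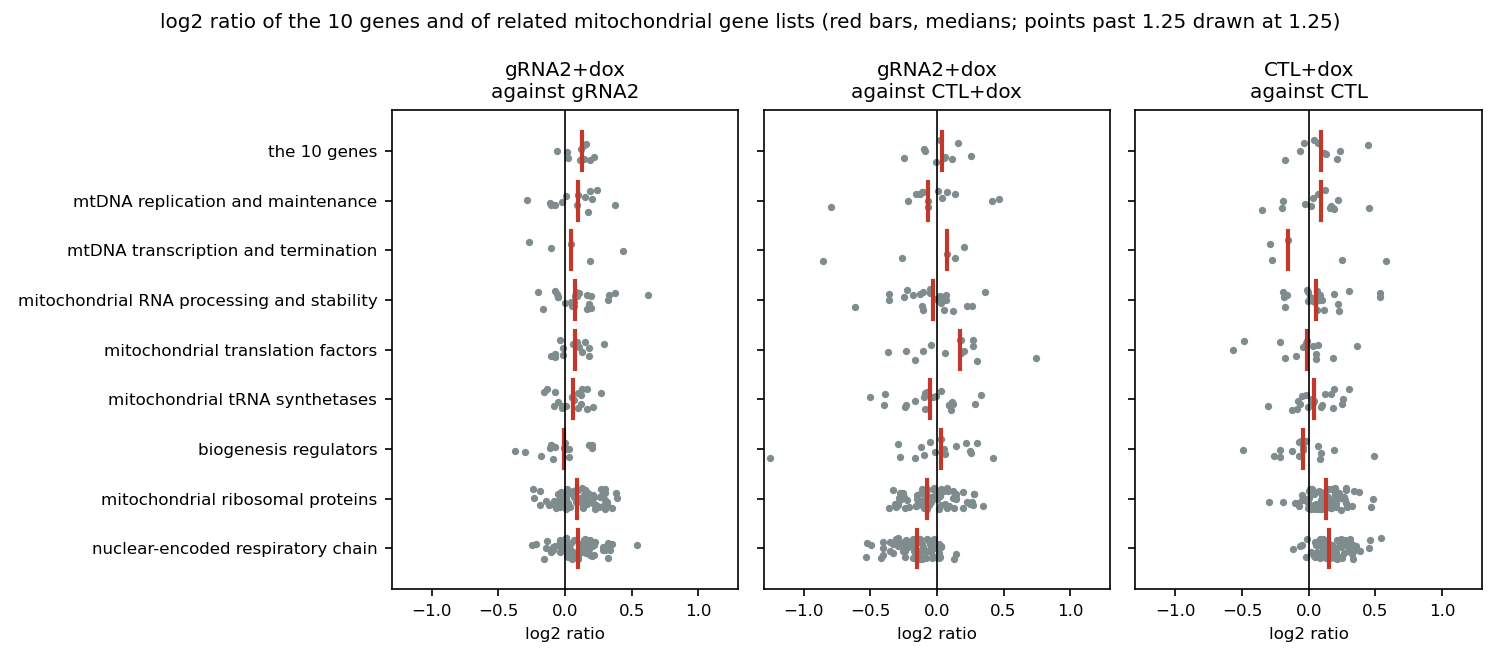
log2 ratio of each gene (grey points) with the median of its list (red bars) for the 10 genes and 8 related lists in 3 comparisons. The medians lie between -0.16 and 0.18; against CTL+dox the respiratory chain lies furthest below 0 (median -0.15), while the 10 genes lie at 0.04.

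The 4-library profile of the 10 genes was small. Over 9155 genes with a mean of at least 10 CPM, the genes nearest to the mean profile of the 10 by Euclidean distance of centred log2 CPM were USP11, RALA, ZFAND2B, TMED2 and SQRDL, at distances of 0.008 to 0.013 over 4 libraries. The 10 genes themselves lay at a mean distance of 0.190 from that profile, beside a median of 0.200 over the compared genes. PPARGC1B (0.561), TFAM (0.348) and TFB1M (0.234) lay furthest, and the others at 0.058 to 0.145. PPARGC1B and TFB1M have mean levels below the 10 CPM asked of the compared genes. Of the compared genes, 1755 lay nearer to the profile than the median of the 10, which themselves define it. With 4 points and so small a profile this is a description only.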

How the data were processed

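Total RNA of 4 mammosphere cultures of MDA-MB-468 was extracted with TRIzol and sequenced, with 1 library per condition. By the study's methods the authors trimmed reads with fastp and quantified genes with STAR, and the deposited values are raw counts of uniquely placed reads per gene, not normalized. The submitters' processing notes name hg38; the annotation and tool versions are not given in the sources used here. The column that ignores strand was used, since the strand columns split the reads evenly (49.0% to 49.1% on the first strand). The leading lines of unassigned reads were used only to describe the libraries.

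Counts were scaled with TMM in edgeR 4.0.16 (R 4.3.3), and log2 ratios used a prior count of 0.5, in proportion to library size. A gene was tested if any library held 10 or more of its reads, which left 15204. For each pair of libraries the exact 95% interval (Clopper-Pearson) came from scipy 1.17.1, and Poisson intervals of single levels likewise. They cover counting error only, and the script was tested on simulated data. The difference of the doxycycline ratios has an SE from the counts. Coordinates and promoters come from RefSeq tables of GRCh38.p14. Transcript lengths come from GENCODE 44 lifted to GRCh37, used for length alone and matched by symbol.

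The 10 genes, the lists and the tests were chosen with earlier results of these data known. Beside the 10 genes and TCOF1, up to 3 genes per list were eligible to be named, by the size of their difference in 1 direction from both gRNA2 and CTL+dox with at least 50 counts in each library. Those named as called by the rule, PPRC1, PPARGC1A, ESRRA and HCFC1 among them, were chosen after their values were seen. The results were recomputed with size factors of DESeq2 1.42.0, total counts, a prior count of 5, thinning, no filter, at least 50 counts, other fold rules, and, chosen after seeing the data, the sum of the strand columns.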

Additional observations from a re-analysis of the deposited data

How the results depend on the processing

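Of 323 values recomputed for the 10 genes under an alternative, 316 kept their side of the rule or stayed within counting error of the reported value, and no called value changed sign. Among the 283 that are not counts, 11 took the other sign, all of them uncalled and at most 0.028 from 0 under the alternative; they include TFB1M in gRNA2+dox against gRNA2 (0.21, -0.03 with the strand sums) and NRF1 and TUFM there with total counts. The 7 that crossed the rule were counts of members called. With the counting interval alone, 2 of the 10 were called in gRNA2+dox against gRNA2 (TFAM and POLG, beside 30.7% of all genes), 2 in gRNA2+dox against CTL+dox (TFAM and POLRMT, beside 40.2%), 1 in CTL+dox against CTL (GFM1, beside 30.4%) and 4 in gRNA2 against CTL (TFAM, POLG, PPARGC1B and TUFM, beside 30.8%). With all libraries thinned to the smallest total, 1 was called in CTL+dox against CTL, PPARGC1B at 0.47, which has 70 reads in CTL. In gRNA2 against CTL the count of 2 became 1 at 1.5-fold and 0 at 2-fold. The median of the 10 in gRNA2 against CTL stayed within -0.03 to 0.00. Much of this agreement was fixed in advance. All 10 genes pass both filters, so those settings repeat the same values. The other scalings shifted the median of all genes by -0.024 to 0.004, too little to turn the called ratios (TFAM -0.39, PPARGC1B 0.76). A value inside its own counting interval counted as kept, which is a wide margin for TFB1M.

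No paired analysis was possible because a condition was 1 library, and none was left out of a group. Depth limits TFB1M and PPARGC1B, with about 100 reads in a library, to differences of roughly the size of their intervals; variation between cultures was not measured.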
